A study of Mus musculus with 4 samples.

Results

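The 10 genes described here encode proteins of the central spindle and of abscission, the last steps by which a dividing cell separates into daughter cells. They are Kif23, Racgap1, Prc1, Kif20a, Aurkb, Incenp, Ect2, Anln, Cit and Cep55, and every array probe whose platform annotation carries 1 of these symbols was taken. These were 10 of 19057 named genes, with 19 of 45281 probes. Probes were taken by gene symbol and not by their measured values, but the genes were chosen with earlier results of these data known. Expression was measured on Illumina bead arrays in sorted macrophages from the mouse peritoneal cavity, with 2 arrays of mice labelled control and 2 of mice labelled Mac-Gata6 KO. The knockout mice carried a floxed Gata6 gene and LysM-cre, which places Cre under control of the lysozyme 2 gene and so acts in myeloid cells. Mice of both groups were untreated C57BL/6 animals between 8 and 16 weeks old. The labels do not give the full genotype of the controls or state if each replicate was 1 animal or a pool. The p-values therefore describe the spread among 4 arrays, and that spread may be technical. The comparison asks how the loss of GATA6, a transcription factor of peritoneal macrophages, changes the transcripts of the cells.

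When sister chromosomes have parted, antiparallel microtubules between them are bundled by PRC1 into a central spindle. Centralspindlin, a complex of the kinesin KIF23 and the GTPase-activating protein RACGAP1, gathers there and recruits ECT2, which activates RhoA at the cortex and so builds the contractile ring. AURKB and INCENP belong to the chromosomal passenger complex, which the kinesin KIF20A brings to the central spindle, anillin (ANLN) ties the ring to the membrane, and citron kinase (CIT) and CEP55 act at the midbody, where CEP55 brings in the ESCRT machinery that cuts the last bridge. Transcripts of such genes peak in G2 and mitosis, and many of their promoters carry a cell cycle homology region (CHR), an element bound by the MuvB complexes that hold the genes off in resting cells and, with B-MYB and FOXM1, turn them on in dividing ones.

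The promoters of members are shown because most of them share this element, although the members did not move together in the data. RefSeq promoter windows (GRCm38.p6, 250 bases before to 50 after each annotated start) were at hand for 7 of the 10 genes, Kif23, Prc1, Anln, Ect2, Racgap1, Cep55 and Cit. The CHR letters TTTGAA, searched on both strands, were in a window of 6 of these 7 and of 20.2% of 27025 genes with a window, and Cit held no match. Among other mitosis genes 22 of 32 held it, and among DNA replication genes 4 of 27. The rarer form TTCGAA was in none of the 7 members and in 1.80% of all genes, and the CCAAT box in 4 of 7 and 41.1%. A match is a run of letters and not a measured binding site. The 5 sequences below run 5′ to 3′ on the strand of the gene, from 70 bases before to 30 after the start of the first listed window, with the CHR letters in capitals (TTCAAA where the match is on the opposite strand).
Kif23 (chr9:61946770-61946869, minus strand): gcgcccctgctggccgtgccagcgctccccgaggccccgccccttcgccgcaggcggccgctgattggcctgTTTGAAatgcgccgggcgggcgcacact
Racgap1 (chr15:99651627-99651726, minus strand): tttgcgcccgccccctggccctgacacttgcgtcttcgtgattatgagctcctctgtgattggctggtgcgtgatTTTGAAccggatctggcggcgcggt
Prc1 (chr7:80294381-80294480, plus strand): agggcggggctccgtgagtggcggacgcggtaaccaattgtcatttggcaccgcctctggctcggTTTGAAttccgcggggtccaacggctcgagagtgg
Anln (chr9:22389177-22389276, minus strand): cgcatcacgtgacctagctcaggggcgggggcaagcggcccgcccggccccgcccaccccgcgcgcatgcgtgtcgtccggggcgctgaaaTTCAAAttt
Cep55 (chr19:38054914-38055013, plus strand): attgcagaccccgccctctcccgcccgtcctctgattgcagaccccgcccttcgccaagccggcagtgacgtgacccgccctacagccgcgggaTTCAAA
With bases counted from 1 at the annotated start, the element began at base 3 in Kif23 and at base 6 in Racgap1, and each had an inverted CCAAT box just upstream. In Prc1 it began 5 bases before the start, with a CCAAT box beginning 37 bases before it. A further Anln match, on the strand of the gene at bases 29 to 34, runs past the printed stretch and is not in capitals. Ect2 is not printed, and the matches in its first window, at bases -114 to -109 and 40 to 45, lie outside such a stretch.

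Across all probes, the table held 16713 with a detection p-value under 0.05 on at least 2 arrays, and these were tested. Detected probes made up 35.5% to 36.4% of each array. In the knockout 941 tested probes (5.63%) rose and 845 (5.06%) fell, at a Benjamini-Hochberg adjusted p under 0.05 in limma, so 10.7% were called. The bright probe of Gata6, the deleted gene, read 13.77 and 13.66 in control against 13.07 and 12.83 in knockout (log2 normalized intensity), a log2 change of -0.76 ± 0.16 (SE, adjusted p = 0.0333 from limma). Its position relative to the floxed part is unknown here, so it does not check the labels. The Gata6 call was lost when any 1 array was dropped (adjusted p from 0.0707 to 0.144). A dimmer Gata6 probe, detected in control alone, fell by at least 1.74-fold. Of macrophage markers, all 10 genes on the array passed the filter.

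In the knockout, Kif23 was the only cytokinesis gene with a probe that passed the test, and it rose. Of the 19 probes 8 were tested, from 6 genes, and each of these 8 was above background on all 4 arrays. Among the 8, 2 rose, both of Kif23, none fell and 6 did not pass. Of all 8, the called ones included, 4 had an unadjusted p under 0.05, as had 26.3% of all tested probes. The median log2 change of the 8 was -0.17, beside -0.0014 over all tested probes. Arrays of the groups did not overlap for 5 of the 8, against 55.3% of all tested probes, with 10.7% of all called. In bulk RNA of this kind, fewer cells of a type and less RNA per cell cannot be told apart.

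**Figure D1:**
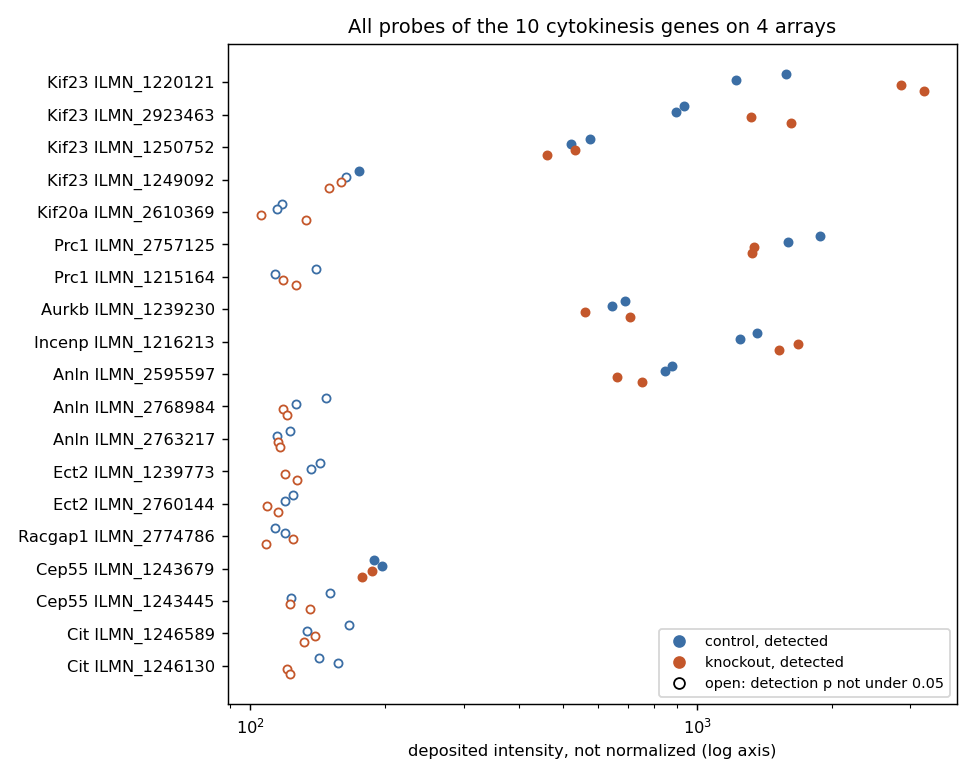
Deposited intensity before normalization (x axis, log scale) of the 19 probes of the 10 genes (rows) on 4 arrays, filled where the detection p-value was under 0.05. The 8 tested probes are filled on all 4 arrays, and 1 further Kif23 probe is filled on 1 control array.

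Kif23, the motor subunit of centralspindlin, had 4 probes on the array. Probe ILMN_1220121, designed to the RefSeq transcript NM_024245, read 10.41 and 10.26 in control against 11.45 and 11.51 in knockout (log2 normalized intensity). Both knockout arrays lay above both control arrays, and the gap between the groups (1.04) was larger than the spread within either. The log2 change was 1.14 ± 0.15 (SE), or 2.21-fold, with an adjusted p of 0.00586 from limma. Before normalization the same probe read 1576 and 1220 in control and 2850 and 3222 in knockout. By size of rise it ranked 415 among the 16713 tested probes.

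A second Kif23 probe for the same transcript, ILMN_2923463, moved in the same direction by less. Its values were 9.57 and 9.77 in control and 10.27 and 10.47 in knockout (log2 normalized intensity), again with no overlap. The log2 change was 0.70 ± 0.16 (SE), or 1.63-fold, with an adjusted p of 0.0443 from limma. This call sat close to the threshold: it was lost in several alternative fits, among them with no detection filter (adjusted p = 0.0758 from limma) and with any 1 array left out (adjusted p from 0.0934 to 0.191), while the log2 change stayed between 0.60 and 0.81.

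The third tested Kif23 probe did not rise with them. ILMN_1250752, designed to the cDNA clone record AK076271, gave 8.75 and 8.81 in control and 8.75 and 8.34 in knockout (log2 normalized intensity). The groups overlapped, since the first knockout array lay between the control arrays. Its log2 change was -0.23 ± 0.18 (SE, adjusted p = 0.490 from limma), with a 95% interval from -0.68 to 0.21. The intervals of the probes that rose ran from 0.79 to 1.501 and from 0.31 to 1.10, so neither overlapped that of the clone probe. The fourth, ILMN_1249092, designed to the clone record AK013939, was above background on 1 of 4 arrays (control 1) and was not tested. The sources used here do not place these probes in the gene, so the transcripts each can bind are unknown, and the difference between probes was not tested.

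Racgap1, the partner of KIF23 in centralspindlin, was not well above background. Its single probe gave 4.70 and 4.78 in control and 4.93 and 4.64 in knockout (log2 normalized intensity), and the lowest detection p on any array was 0.471. The control values lay between the knockout values. No change of this subunit could be measured at that signal, in either direction.

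**Figure D2:**
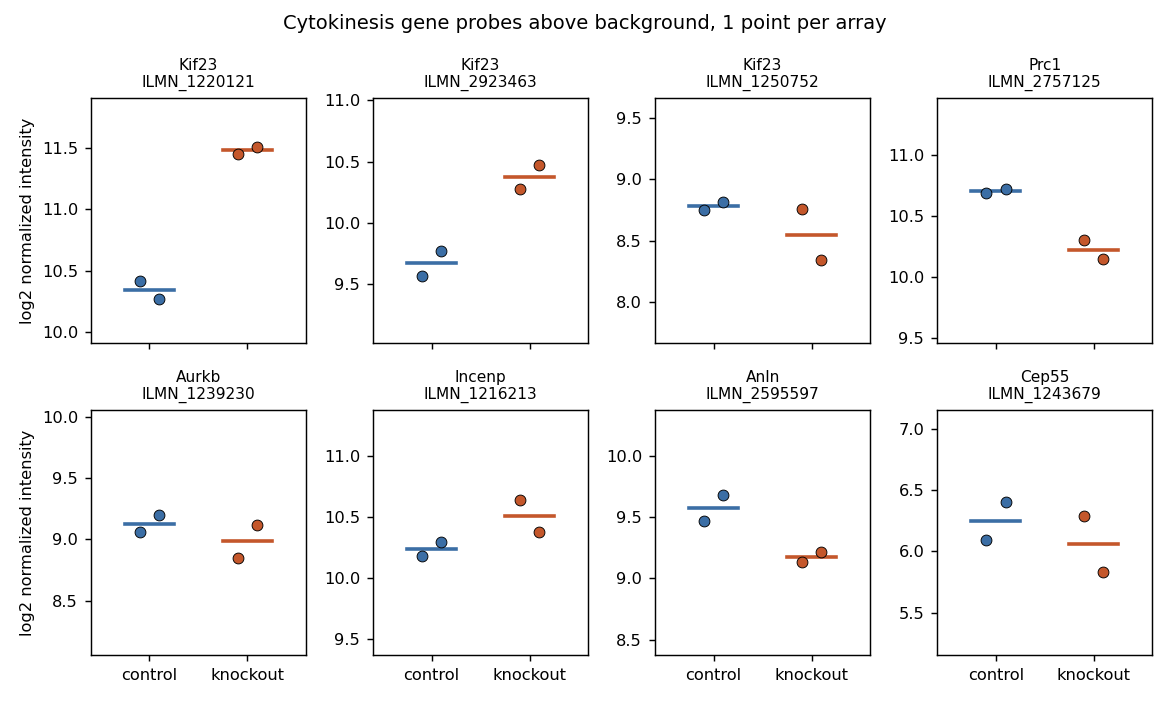
Log2 normalized intensity (y axis, each panel spanning the same range) of the 8 tested cytokinesis probes on 2 control and 2 knockout arrays, with bars at group means; levels of different probes are not comparable. For 2 Kif23 probes and, by a gap of 0.08, for Incenp both knockout arrays lie above both controls, and for Prc1 and Anln both lie below.

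Prc1, the microtubule bundler, was lower in the knockout without passing the test. Probe ILMN_2757125 gave 10.69 and 10.72 in control and 10.30 and 10.15 in knockout (log2 normalized intensity), with no overlap. The log2 change was -0.48 ± 0.15 (SE, adjusted p = 0.0997 from limma), which leaves 71.9% of the control signal. With all 4 arrays, this probe passed in 3 of 10 alternatives. These were no background correction (log2 change -0.44, adjusted p = 0.0138 from limma), the processed values of the authors (adjusted p = 0.0138 from limma), and robust variance with an intensity trend (adjusted p = 0.0155 from limma). The first 2 gave the same log2 change, and all 3 called more probes over the whole array than the main fit. With median scaling it did not pass (log2 change -0.39, adjusted p = 0.238 from limma). A second Prc1 probe was above background on no array. Kif20a, the kinesin that carries the passenger complex, had 1 probe, at 4.74 and 4.72 in control and 4.67 and 4.93 in knockout (log2 normalized intensity), not well above background on any array.

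The chromosomal passenger genes had values with small differences relative to their spread. Aurkb, the kinase of the complex, gave 9.06 and 9.20 in control and 8.85 and 9.12 in knockout (log2 normalized intensity), so the groups overlapped. Its log2 change was -0.14 ± 0.16 (SE, adjusted p = 0.648 from limma, 95% interval from -0.54 to 0.25). Incenp, the scaffold that activates AURKB, gave 10.18 and 10.30 in control and 10.64 and 10.38 in knockout. Both knockout arrays lay above both controls, by a gap of 0.08. The log2 change of Incenp was 0.27 ± 0.16 (SE, adjusted p = 0.365 from limma, 95% interval from -0.13 to 0.66). The intervals leave room for changes of either sign in both genes.

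At the cortex, Anln was lower without passing. Its bright probe gave 9.47 and 9.68 in control and 9.14 and 9.21 in knockout (log2 normalized intensity), with both knockout arrays below both controls. The log2 change was -0.40 ± 0.15 (SE, adjusted p = 0.164 from limma), which leaves 75.7% of the control signal. Its other 2 probes, designed to the same transcript record, were above background on no array. Ect2, the exchange factor that switches on RhoA, had 2 probes, between 4.78 and 5.13 in control and between 4.71 and 4.85 in knockout, none of them detected on any array.

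At the midbody, Cep55 was dim but detected on all 4 arrays by 1 of its 2 probes. The values were 6.10 and 6.40 in control and 6.29 and 5.83 in knockout (log2 normalized intensity), which overlapped. The log2 change of Cep55 was -0.19 ± 0.21 (SE, adjusted p = 0.636 from limma, 95% interval from -0.70 to 0.32), and the sign turned without knockout 2 (0.041). Cit, the midbody kinase, was above background on no array with either of its 2 probes. Probe ILMN_1246130 of Cit gave 5.11 and 5.50 in control and 4.87 and 4.78 in knockout, all in the range of background.

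In all, 11 probes were not tested, and Kif20a, Racgap1, Ect2 and Cit had no tested probe. On the 4 arrays these 11 lay between 4.64 and 5.80 (log2 normalized intensity), while the lowest value of any detected probe was 5.69. Deposited intensities ranged from 105 to 175. When all probes of the array were fitted with no detection filter, the log2 changes of the 11 ran from -0.48 to 0.07 and the lowest adjusted p was 0.265 (limma). Values this near background put no size on a change, and do not show that the transcripts were absent.

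**Figure D3:**
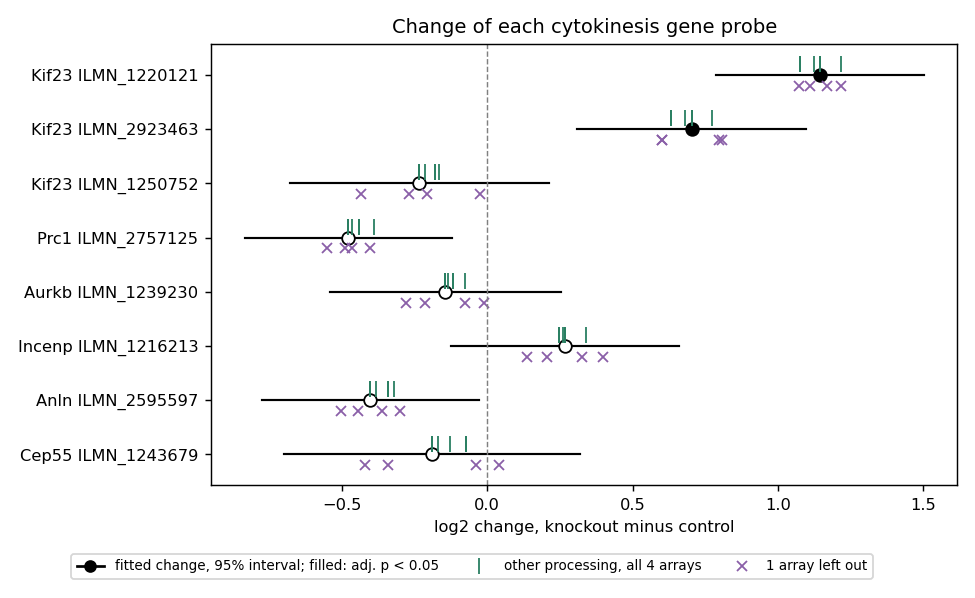
Log2 change, knockout minus control (x axis), of the 8 tested probes with 95% intervals (filled where adjusted p was under 0.05), with fitted changes under other processing of all 4 arrays (bars) and with 1 array left out (crosses). The Kif23 probe at 1.14 stayed between 1.07 and 1.22 throughout, and Cep55 crossed 0 without 1 knockout array.

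The genes around the members were described with the same fit. Other central spindle and midbody genes had 12 on the array and 20 tested probes, of which 1 fell and none rose, beside 5.06% and 5.63% of all tested probes. The probe that fell was that of Tex14, which in mouse germ cells binds CEP55 and keeps intercellular bridges open. It gave a log2 change of -1.46 ± 0.14 (SE, adjusted p = 0.00205 from limma) and passed under every alternative run. Birc5 and Nusap1 did not pass, with log2 changes of -0.44 and -0.38 at their most changed probes, and 1 of the 3 Kif4 probes was detected on no knockout array.

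Genes of the contractile ring had 19 tested probes, of which 1 rose and none fell, beside 5.63% and 5.06% of all tested probes. Septin7, a subunit of the septin filaments of the furrow, rose by 1.13 ± 0.18 (SE, adjusted p = 0.0118 from limma) and was detected on 1 of 2 control arrays. It did not pass without control 2 (adjusted p = 0.0558) or without knockout 2 (0.0646). The actin regulators Pfn1 (0.39 and 0.14 at its 2 probes) and Cfl1 (0.42) had log2 changes that did not pass. Of 33 tested ESCRT and abscission probes 1 rose and none fell, beside the same shares of all tested probes. Chmp6, an ESCRT-III subunit, rose by 0.84 ± 0.17 (SE, adjusted p = 0.0278 from limma), a call lost with any 1 array left out (adjusted p from 0.0617 to 0.127). The median log2 change was 0.07 for the ring list and 0.19 for the ESCRT list, beside -0.0014 over all tested probes.

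Few probes of other dividing-cell genes passed in the main fit, at shares near the 5.06% of all tested probes that fell. These counts depended on the processing. On uncorrected intensities 5 of 30 mitosis and 12 of 42 replication probes fell, where 1462 of 16713 fell in all. The authors' table gave the same counts, and the variance trend gave 4 and 11, with 1452 in all. With median scaling 1 and 2 fell, with 809 in all. What follows is from the main fit. Among other mitosis genes 24 of 30 tested probes had a negative log2 change (median -0.35), as had 50.2% of all tested probes, and 2 fell while none rose. Top2a, which untangles DNA, had a log2 change of -0.74 ± 0.17 (SE, adjusted p = 0.0469 from limma), and the kinesin Kif18a, at least 1.55-fold lower, was detected on no knockout array. Kif18a passed the filter through the control arrays alone, so its place among the fallen probes was partly set by the filter. Without a control array it was not tested. Among DNA replication genes 34 of 42 probes were negative (median -0.32), and 3 fell while none rose. These were the chromatin assembly subunit Chaf1b (-0.78 ± 0.15) and both probes of thymidine kinase Tk1 (-0.92 ± 0.18 and -0.68 ± 0.14, SE, adjusted p from 0.0246 to 0.0333 from limma). The calls of Top2a, Chaf1b and the brighter Tk1 probe were lost with any 1 array left out (adjusted p from 0.0705 to 0.175), and that of Kif18a without either knockout array. The dimmer Tk1 probe kept its call only without knockout 1 (adjusted p = 0.0425).

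Genes for factors that act on the CHR element were mixed, with 1 of 19 probes risen and 2 fallen (median log2 change -0.05). Over all tested probes, 5.63% rose and 5.06% fell. Foxm1, the activator of G2 and mitotic genes, had values of 7.87 in control and 6.69 in knockout (means of log2 normalized intensity, n = 2 each) at 1 probe, a log2 change of -1.18 ± 0.26 (SE, adjusted p = 0.0361 from limma). Its other probe did not pass (-0.49 ± 0.18), and of the fits with an array left out only that without control 2 kept the call (adjusted p = 0.0268). Rbl2, a pocket protein of the repressive complex, was detected in control alone and fell by at least 1.43-fold. It passed the filter through the control arrays alone, so its place among the fallen probes was partly set by the filter. The Rbl2 call was lost without either knockout array, and without a control array the probe was not tested. E2f5, which binds such pocket proteins, rose by 0.91 ± 0.14 (SE, adjusted p = 0.0115 from limma), a call lost with any 1 array left out. Neither tested probe of Mybl2, the gene of B-MYB, passed. The brighter had a log2 change of -0.26, and the dimmer, detected in control alone, was at least 1.19-fold lower.

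**Figure D4:**
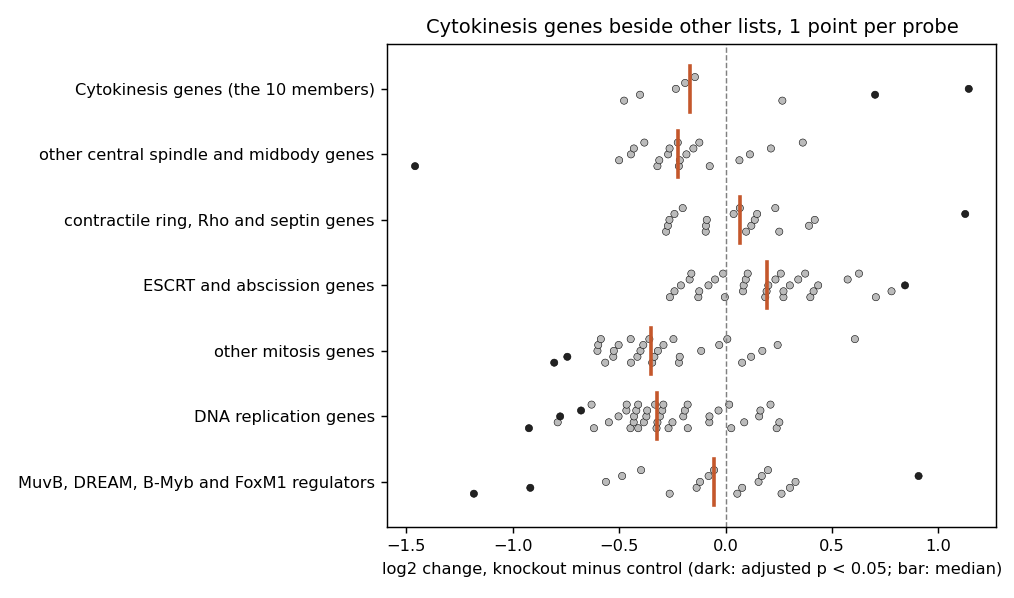
Log2 change, knockout minus control (x axis), of every tested probe of the cytokinesis genes and 6 other lists (rows), dark where adjusted p was under 0.05, with bars at list medians. The 2 dark points of the cytokinesis row are Kif23 probes, and the mitosis and replication rows have medians of -0.35 and -0.32.

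Markers of other cells also differed between the groups in which Kif23 rose. Over all tested probes, 5.63% rose and 5.06% fell. Of 10 tested B cell marker probes 8 rose and none fell, and their summed level over all 18 probes on the array (linear normalized intensity) was 1616 to 1641 in control and 3060 to 3443 in knockout, with Cr2, Ms4a1 and Pax5 not detected on enough arrays to be tested. Of 10 tested erythroid probes 9 rose, all of the globin genes Hbb-bs, Hbb-bt and Hba-a1. The tested probe of Klf1 did not pass (log2 change 0.60, adjusted p = 0.112 from limma), and Alas2 and Epor were not tested. Summed levels of the erythroid list were 531 to 553 in control and 2130 to 2319 in knockout. Most of these erythroid probes were detected on no control array. They passed the filter through the knockout arrays alone, so their share that rose was partly set by the filter. Of 6 tested mast cell probes 2 rose, both of Cpa3, while those of Mcpt4, Cma1 and Fcer1a did not pass. Summed levels of the mast cell list were 597 to 615 in control and 802 to 847 in knockout, with Kit, Ms4a2 and Tpsb2 not tested. T and NK cell genes had 2 tested probes, of which that of Cd2 rose and that of Klrb1c did not pass (log2 change -0.12). Summed levels of that list, Cd2 included, were 438 to 463 in control and 706 to 758 in knockout, and none of Cd3d, Cd3e and Cd3g was tested. The 1 tested neutrophil probe, that of S100a8, fell, with summed levels of 1743 to 1920 and 937 to 1140. The 1 tested dendritic cell probe, that of Ccr7, was detected on no control array and was at least 1.17-fold higher in knockout. Summed levels of the dendritic cell list were 567 to 632 in control and 594 to 632 in knockout. The eosinophil probe tested (Il5ra) did not pass, and no mesothelial or fibroblast marker was tested. Among macrophage markers 4 of 16 probes fell and none rose, 3 of Adgre1 and 1 of Fcgr1. Of the 16, 8 had a negative and 8 a positive log2 change (median -0.023). Summed levels were 182386 to 188663 in control and 151210 to 162504 in knockout. Adgre1 weighs heavily in these sums. Its brighter probes had means of 14.64 and 14.71 in control and 13.18 and 13.15 in knockout (log2 normalized intensity). The part of these and the other markers in the Kif23 result was not tested.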

How the data were processed

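Illumina bead arrays were run on biotin-labelled cRNA from 4 samples, 2 per group. The authors deposited un-normalized intensity values of all probes, each paired with a detection p-value per the file headers, and a second table of processed intensity values on a linear scale. The latter shared 1 distribution across arrays (medians between 142.05 and 142.14), was not centred and kept the probe ranks of the first; no software is named in the sources used here. Blank lines (1349) were dropped.

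Intensities were background-corrected from the detection p-values, quantile normalized and log2 transformed with neqc (offset 16) of limma 3.58.1 in R 4.3.3. Probes with a detection p-value under 0.05 on at least 2 arrays were kept, each as a separate row. The knockout coefficient was fitted with lmFit and eBayes, with no block, two-sided, with Benjamini-Hochberg adjustment over 16713 probes. Symbols came from the platform annotation of 2016, and 34807 annotated probes matched the RefSeq table (GRCm38.p6) with no symbol changed. A probe detected on neither array of a group is described as not well above background, and its change as a bound: the brighter mean against, per array, the higher of its own value and the lowest detected value. The number of arrays limits the precision. Simulated data had the probe levels of this comparison (16713 probes) and 1 common spread for all probes, scaled from the median spread. In them 83 of 100 probes changed by 1 on the log2 scale were called, 100 of 100 changed by -2, and 9 unchanged ones. Real spread differs between probes, so these counts do not measure the power or error rate of the real fit.

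The members, gene lists and rules were chosen with earlier results of these data known. All member probes and Gata6 were named, and of each other list up to 4 genes with the smallest unadjusted p; of marker lists, counts and ranges. Alternatives covered background, offset, scaling, the authors' table, the filter on detection, the number of probes for a gene, the model of variance, a replicate block and leaving out each array.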

Additional observations from a re-analysis of the deposited data

How the results depend on the processing

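The rise of Kif23 probe ILMN_1220121 passed under each of the 10 alternatives with all 4 arrays and with any 1 array left out, at log2 changes from 1.07 to 1.22. Over the 8 tested member probes and the settings with all 4 arrays, 72 values kept direction and side of the threshold, 3 lost it (the second Kif23 probe) and 3 crossed it (Prc1). The filter, probe number, variance model and blocks do not alter the log2 change of a probe, so under those its direction was fixed. Uncorrected intensities and the authors' table gave nearly equal log2 changes, so those settings are not separate checks. The number of member probes that rose was 1 with no detection filter, with 1 probe per gene (which keeps 1 Kif23 probe by construction), with the replicate block and with the crossed block, against 2 otherwise, and it was 1 with any 1 array left out. The number that fell was 1 on raw quantile-normalized intensities, on the processed values of the authors and with a robust variance trend, against 0 (limma, 2 of the 8 negative at an unadjusted p under 0.05). For Kif23 ILMN_2923463 the log2 change was 0.70 with no detection filter and with either block, and 0.60 to 0.81 with 1 array left out, none of which passed. For Prc1 it was -0.44 on uncorrected intensities and on the authors' table, and -0.48 with the variance trend. Cep55 ranged from -0.42 to 0.041 with 1 array left out, turning positive without knockout 2. On uncorrected intensities 1515 probes rose and 1462 fell in all, the authors' table gave the same counts, and the variance trend 1499 and 1452. With 1 array left out 275 to 560 rose and 309 to 446 fell. Of the probes on the 6 other lists, 3 rose and 8 fell; the counts were 8 and 20 on uncorrected intensities and on the authors' table, 6 and 18 with the variance trend, 5 fallen with no detection filter, and 0 to 2 and 1 to 3 with 1 array left out. Over the named list probes, signs turned with 1 array left out for Kif4 ILMN_1220039 (-0.54 to 0.0076), Spast ILMN_2769210 (-0.28 to 0.44) and Cenpa ILMN_1236574 (-0.060 to 0.0025, and 0.060 with median scaling). Fewer arrays leave fewer degrees of freedom, and the cause of the other differences was not tested. The labels do not say that replicate numbers pair the samples, and across probes the deviations of arrays with the same number had a correlation of -0.14. With the replicate block 842 probes rose and 749 fell; a block with crossed numbers, added after the data were seen, gave 930 and 837. No slide is named, so no slide block was run. Signal over background limits 11 of the 19 member probes.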
